A study of Citrus maxima with 6 samples.

Results

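Fibrillins, also called plastid-lipid associated proteins, are plastid proteins that bind lipids. They coat plastoglobules, the lipid droplets of plastids in which tocopherols, plastoquinone and carotenoids are held, and they were first described in the carotenoid-bearing fibrils of pepper fruit chromoplasts. Different members of the family act in the transport and synthesis of plastoquinone, in the build-up of carotenoid stores and in the response of chloroplasts to strong light. The red colour of pomelo pulp generally comes from lycopene, a carotenoid that is kept in chromoplasts.

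The fibrillin genes described here are those whose annotated gene name contains fibrillin or plastid-lipid associated, which held for 10 of the 30123 genes in the table. Their transcripts were measured by RNA sequencing in the ripe pulp of 2 pomelo cultivars, red-sarcocarp (Citrus maxima Merr. var. Tubtim Siam) and white-sarcocarp (Citrus maxima (Burm.) Osbeck), with 3 libraries from each cultivar. The study pooled pulp of several healthy, ripe fruits for a biological repeat and grew both cultivars in orchards of the same region, and no treatment is named. Colour and every other difference between these cultivars cannot be told apart. Values are FPKM (fragments per kilobase of transcript, scaled to the mapped fragments of the library), which are per length and can therefore be compared between genes. In mixed pulp, fewer cells of a type and less RNA per cell cannot be told apart.

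Every one of the 10 genes carries the same annotation, and they were told apart by their best hit in Arabidopsis, which the table gives beside the name. Together they hit 9 of the 14 fibrillins of Arabidopsis. Cg3g007830 had FBN2 (AT2G35490) as its best hit, Cg9g008910 had FBN4 (AT3G23400), Cg1g026330 had FBN5 (AT5G09820) and Cg4g000380 had FBN6 (AT5G19940). Cg6g012800 had FBN7b (AT2G42130), Cg5g039620 had FBN8 (AT2G46910), Cg5g043910 had FBN9 (AT4G00030) and Cg2g001500 had FBN10 (AT1G51110). FBN3a (AT3G26070) was the best hit of both Cg3g005550 and Cg3g005890. None of the 30123 genes had FBN1a (AT4G04020) or FBN1b (AT4G22240) as its best hit, and these are the Arabidopsis relatives of the fibrillin first described in pepper chromoplasts. The 10 genes are therefore called fibrillin genes here and not chromoplast fibrillins, as the table says nothing of where in the cell their products lie.

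The 6 libraries summed to between 812335 and 835575 FPKM, with between 15920 and 16250 genes above 0. Genes with a mean of at least 1 FPKM in at least 1 cultivar were compared between cultivars on log2(FPKM + 0.1) with limma, which applied to 14158 genes. A gene is said to have risen or fallen in red-sarcocarp pomelo where its p, adjusted over all these genes by the Benjamini-Hochberg method, was at most 0.01. A second rule, that of the study, also asked for a log2 fold change at or beyond 2 in either direction. All fold changes set red against white on the log2(FPKM + 0.1) scale and are therefore too small for genes near 0 FPKM.

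All 10 fibrillin genes had reads in every library. The authors' mean normalized count over the 6 libraries ran from 15.9 for Cg1g026330 to 651 for Cg6g012800, so the values of Cg1g026330 rest on few reads. The family was expressed at low to moderate levels. Its most abundant member, the FBN7b hit Cg6g012800, lay at percentile 64.4 of mean FPKM among the genes tested, and the least abundant member tested, the FBN10 hit Cg2g001500, at percentile 4.91. Only Cg1g026330 was not tested, with means of 0.980 FPKM in red and 0.643 FPKM in white, just under the minimum of 1 that Cg2g001500 passed with 1.4 FPKM in red.

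Of the 9 fibrillin genes tested, 2 rose in red-sarcocarp pomelo, the FBN3a hit Cg3g005550 and the FBN2 hit Cg3g007830, and 0 fell. This is 22.2% of the members, against 27.5% of all genes tested (13.4% higher and 14.1% lower), a share near that of the whole table. At an unadjusted p under 0.05, 3 members were higher and 1 was lower, or 4 of 9 beside 53.8% of all genes tested (27.2% higher and 26.6% lower). By the second rule 0 of 9 members were called, at an adjusted or an unadjusted p, against 6.76% of all genes (3.11% higher and 3.65% lower). The fitted changes ran from -0.37 to 1.02 with a median of 0.11, beside a median of 0.02 over all genes tested, and 20.4% of all genes had a change larger in size than any of the members. The red libraries did not overlap the white ones in 5 of the 9 members (4 higher and 1 lower), against 57.7% of all genes tested (29.4% higher and 28.3% lower).

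**Figure D1:**
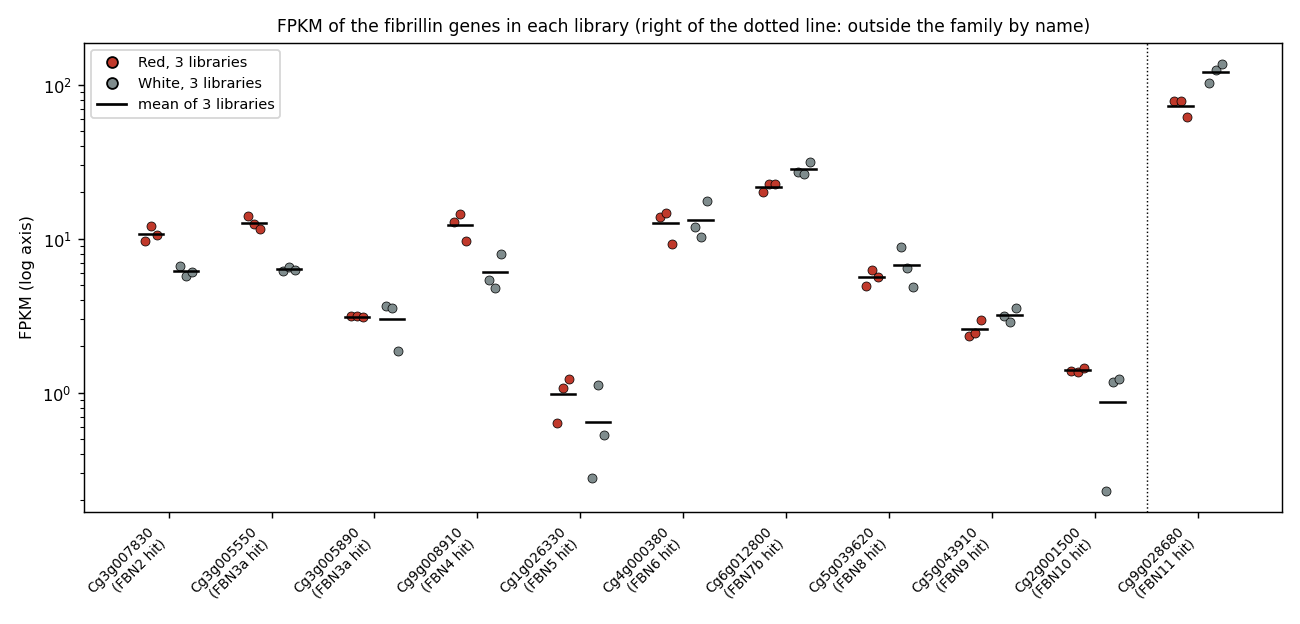
FPKM (log axis) of the 10 fibrillin genes in the 3 red and 3 white libraries, with the mean of each cultivar as a bar. The gene right of the dotted line is the FBN11 hit, which is not in the family by name. The red points lie above all white points for the hits of FBN2, FBN4 and FBN10 and for Cg3g005550, and below them for Cg6g012800.

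Among the genes related to plastoglobule fibrillins, the FBN2 hit Cg3g007830 rose in red-sarcocarp pomelo. In Arabidopsis FBN2 belongs to the fibrillins found on plastoglobules. Cg3g007830 had 9.66, 12.1 and 10.56 FPKM in red replicates 1 to 3 and 6.7, 5.76 and 6.11 FPKM in the white ones. Every red library thus lay above every white library, with means of 10.8 ± 1.23 FPKM in red and 6.19 ± 0.475 FPKM in white (SD, n = 3), a 1.74-fold difference in mean FPKM. The log2 fold change was 0.79 (standard error 0.13, 95% interval 0.48 to 1.09, adjusted p = 0.00297 from limma). The call was lost, with the direction kept, without red replicate 2 and without either of white replicates 2 and 3, where the log2 fold change was 0.70, 0.74 and 0.78 and the adjusted p from limma 0.0115, 0.0139 and 0.0120.

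The FBN4 hit Cg9g008910 had the largest fitted change of the family but lay just outside the threshold. FBN4 is a plastoglobule protein that in Arabidopsis is needed for plastoquinone to enter plastoglobules. The 3 red libraries had 12.78, 14.42 and 9.6 FPKM, and the 3 white libraries 5.42, 4.8 and 7.91 FPKM. The groups did not overlap, although red replicate 3 and white replicate 3 lay closest to each other, and the means were 12.3 ± 2.45 FPKM in red and 6.04 ± 1.65 FPKM in white (SD, n = 3). The fitted log2 fold change reached 1.02 (standard error 0.23, 95% interval 0.48 to 1.56) with an adjusted p of 0.01001 from limma. Without red replicate 3 the log2 fold change was 1.19 (adjusted p = 0.00887 from limma) and without white replicate 3 it was 1.23 (adjusted p = 0.00636 from limma), both past the threshold. Without any of the other 4 libraries it was 0.88 to 0.98, with adjusted p values from limma of 0.0353 to 0.0405.

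Cg6g012800, the hit of the plastoglobule fibrillin FBN7b, was the most abundant member in all 6 libraries and pointed the other way. It had 19.97, 22.8 and 22.6 FPKM in red and 27.06, 26.18 and 31.64 FPKM in white, so all red libraries lay below all white ones. The means were 21.8 ± 1.58 FPKM and 28.3 ± 2.93 FPKM (SD, n = 3). The difference did not pass the threshold, with a log2 fold change of -0.37 (standard error 0.11, 95% interval -0.62 to -0.12, adjusted p = 0.0257 from limma).

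For the FBN8 hit Cg5g039620, whose Arabidopsis relative is also a plastoglobule protein, the cultivars overlapped. The red libraries had 4.92, 6.31 and 5.66 FPKM and the white libraries 8.81, 6.49 and 4.84 FPKM, the last below every red value. Its log2 fold change was -0.22 with a 95% interval of -0.75 to 0.32, which leaves room for a change in either direction. Of the 4 hits of plastoglobule fibrillins, 1 rose, 1 lay just outside the threshold with a higher level in red, and the other 2 had lower means in red without passing the test.

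Of the 2 genes with FBN3a as best hit, only Cg3g005550 passed the test. In Arabidopsis FBN3a is found with thylakoid membranes rather than with plastoglobules. Cg3g005550 had 13.98, 12.37 and 11.62 FPKM in the red libraries and 6.2, 6.56 and 6.26 FPKM in the white ones, a 2.0-fold difference in mean FPKM with close replicates in both cultivars. Its means were 12.7 ± 1.21 FPKM and 6.34 ± 0.193 FPKM (SD, n = 3). The log2 fold change was 0.98 (standard error 0.11, 95% interval 0.71 to 1.25, adjusted p = 0.000696 from limma), and it passed the threshold in all 16 alternative settings, with log2 fold changes from 0.89 to 1.04.

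Cg3g005890 was lower and differed little between cultivars. It had 3.14, 3.13 and 3.1 FPKM in red and 3.63, 3.54 and 1.87 FPKM in white, so the white libraries lay on both sides of the red ones. The log2 fold change was 0.11 (95% interval -0.53 to 0.75, adjusted p = 0.770 from limma). It turned to -0.19 without white replicate 3. The ratio of Cg3g005550 to Cg3g005890 was 4.45, 3.95 and 3.75 in the red libraries and 1.71, 1.85 and 3.35 in the white libraries. These ratios did not overlap and averaged 4.04 in red against 2.2 in white (geometric means). An exact permutation test of the log2 ratios (two-sided) gave p = 0.1, the smallest value that 3 against 3 libraries allow. Any ratios without overlap give this value, so the test cannot decide whether the ratio differs between the cultivars. The pair shares a best hit, and how reads of similar sequence were divided between both genes was not tested. The authors' mean normalized count was 45.6 per FPKM for Cg3g005890 and 20.2 for Cg3g005550, beside quartiles of 19.8 and 45.7 over all genes tested.

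The hits of FBN6, FBN9 and FBN10 did not pass the test, and that of FBN5 was under the minimum level for it. Cg4g000380, the FBN6 hit, came just after Cg6g012800 in abundance in white-sarcocarp pomelo and after Cg3g005550 in red. It had 13.89, 14.72 and 9.27 FPKM in red and 11.89, 10.28 and 17.68 FPKM in white, and replicate 3 gave both the lowest and the highest of these values. Its log2 fold change was -0.06 (95% interval -0.65 to 0.52). That sign was reversed without red replicate 3 (0.14) and without white replicate 3 (0.16).

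The FBN9 hit Cg5g043910 had 2.33, 2.43 and 2.98 FPKM in red and 3.16, 2.87 and 3.54 FPKM in white. The highest red value lay above the lowest white value, and the log2 fold change was -0.30 (95% interval -0.74 to 0.14). The FBN10 hit Cg2g001500 had closely similar red values of 1.39, 1.37 and 1.45 FPKM but white values of 0.23, 1.17 and 1.22 FPKM. White replicate 1 stood far below the others, and the log2 fold change of 0.87 (95% interval -0.45 to 2.19) was 0.22 without it.

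Cg1g026330 is the hit of FBN5, which in Arabidopsis binds solanesyl diphosphate synthases and is needed to make plastoquinone. It had 0.64, 1.07 and 1.23 FPKM in red and 0.28, 1.12 and 0.53 FPKM in white, with overlapping cultivars. When no filter on low values was used its log2 fold change was 0.66 (95% interval -0.50 to 1.82, adjusted p = 0.344 from limma). This interval includes changes in both directions. The hit of its partner SPS2, Cg5g015770, had means of 2.66 ± 0.360 FPKM in red and 2.52 ± 0.453 FPKM in white (SD, n = 3), a log2 fold change of 0.08.

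**Figure D2:**
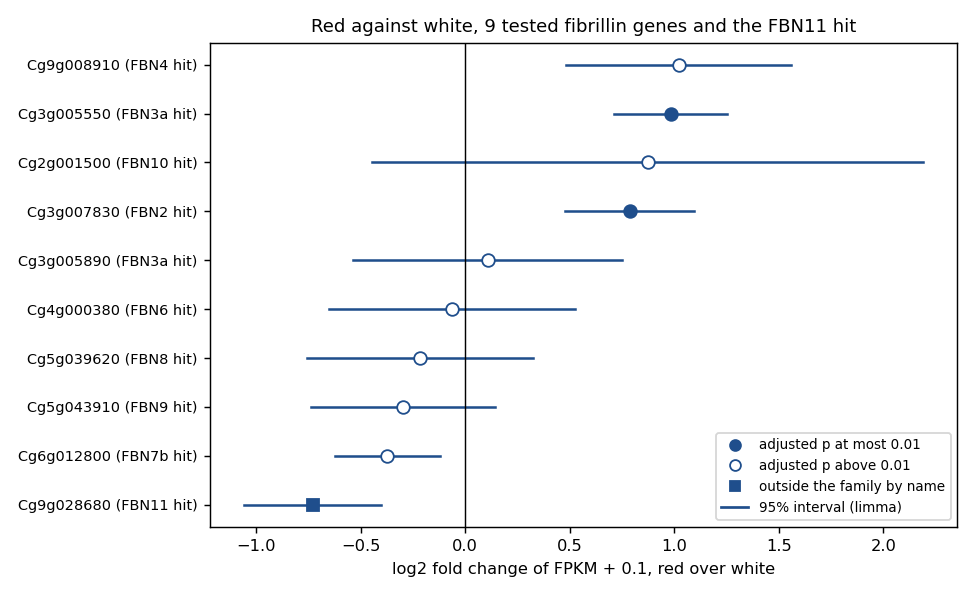
Log2 fold change of FPKM + 0.1, red over white, with the 95% interval from limma, for the 9 tested fibrillin genes (circles) and the FBN11 hit (square). Filled symbols have an adjusted p of at most 0.01, which held for Cg3g005550, Cg3g007830 and the FBN11 hit Cg9g028680. The other 7 members are open, and 5 of their intervals include 0.

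A further gene joined the family when the best hit was used in place of the name. Cg9g028680 is annotated as OBP3-responsive gene 1 and hits FBN11 (AT5G53450), a member of the Arabidopsis family that also carries a kinase domain. It had 78.06, 78.89 and 61.84 FPKM in red and 102.76, 123.99 and 136.25 FPKM in white, more than any of the 10 named genes in every library and lower in red in every library. Its log2 fold change was -0.73 (standard error 0.14, 95% interval -1.06 to -0.40, adjusted p = 0.00521 from limma). The call was lost, with the direction kept, when any library but white replicate 1 was left out, with adjusted p values from limma of 0.0113 to 0.0217 and log2 fold changes of -0.79 to -0.61. It was also lost without the mean-variance trend (adjusted p = 0.0146 from limma). With this gene 11 genes made up the family, and of the 10 tested 2 rose and 1 fell. This is 30.0%, against 27.5% of all genes tested.

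In red-sarcocarp pomelo Cg6g012800 stood apart at the top of the order of levels. It was followed by Cg3g005550, Cg4g000380, Cg9g008910 and Cg3g007830 with means between 10.8 and 12.7 FPKM, neighbours whose libraries overlapped. Below them each gene lay apart from the next, from Cg5g039620 with a mean of 5.63 FPKM through Cg3g005890, Cg5g043910 and Cg2g001500 to Cg1g026330. In white-sarcocarp pomelo Cg6g012800 was again first and Cg4g000380 second, each apart from the next. The following 4 genes, Cg5g039620, Cg3g005550, Cg3g007830 and Cg9g008910, had means between 6.04 and 6.71 FPKM and overlapped. The hits of FBN2, FBN4 and FBN3a (Cg3g005550) thus stood level with the FBN6 hit in red but below it in white.

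The summed level of the 10 genes overlapped between the cultivars, with 83.8 ± 6.40 FPKM in red (78.07 to 90.72) and 74.6 ± 6.50 FPKM in white (68.77 to 81.6; SD, n = 3). The share of each gene in this sum was also read in each library. Cg6g012800 gave 26.1% ± 2.54 of the sum in red and 37.9% ± 0.956 in white. Cg3g005550 gave 15.1% ± 1.65 in red and 8.55% ± 0.939 in white. Cg9g008910 gave 14.6% ± 1.96 and 8.02% ± 1.46, and Cg3g007830 gave 12.9% ± 1.02 and 8.33% ± 0.821 (SD, n = 3). The shares of 5 genes, these and Cg5g043910, did not overlap between red and white libraries, which is 5 of 10, while the FPKM of 57.7% of all genes tested did not overlap. Shares add up to a whole, so a lower share of Cg6g012800 goes with higher shares elsewhere. The 4 hits of plastoglobule fibrillins together gave 60.2% ± 2.59 of the sum in red and 63.4% ± 1.81 in white (SD, n = 3), and these values overlapped.

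**Figure D3:**
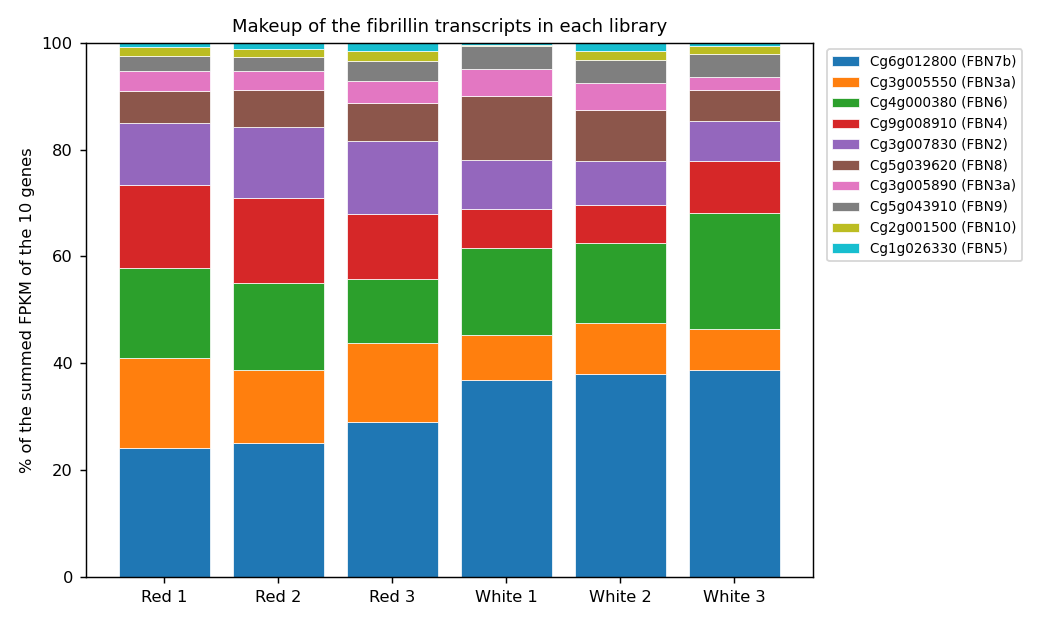
Share of each of the 10 fibrillin genes in their summed FPKM (%), 1 bar per library. The lowest segment, Cg6g012800, takes 24.15% to 28.95% in the red libraries and 36.88% to 38.77% in the white libraries.

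The fibrillin genes were set beside 6 lists of plastid isoprenoid genes, chosen by their best Arabidopsis hit. Over these lists 57 genes were tested, and 7 rose and 9 fell, or 28.1% against 27.5% of all genes tested. The 7 were 4 without red replicate 1, without red replicate 2 or without white replicate 3, and the 9 were 5 without red replicate 1. Of these, Cg6g007690 and CgUng019070, share the best hit VTE4 and are listed with identical FPKM in every library and an authors' mean normalized count of 0, so they cannot be told apart. Counted as 1 gene, they leave 7 that rose and 8 that fell of 56, or 26.8%. Single genes of the carotenoid pathway changed far more than any fibrillin gene.

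Among the plastoglobule proteins other than fibrillins, 1 of 15 tested genes rose and 3 fell, with a median log2 fold change of 0.16. This is 26.7%, against 27.5% of all genes tested. The gene that rose was Cg7g013230, a hit of the carotenoid cleavage dioxygenase CCD4. It had 38.89, 30.08 and 51.79 FPKM in red and 8.16, 9.6 and 7.55 FPKM in white (log2 fold change 2.21, adjusted p = 0.000266 from limma), compared with at most 1.02 for a fibrillin gene. The genes that fell were Cg3g022060, a hit of the allene oxide synthase of jasmonate synthesis, with -0.85, and the methyltransferases Cg3g015120 and Cg4g024930 with -0.58 and -0.47 (adjusted p from limma 0.00760, 0.00256 and 0.00355). These calls were lost in some settings with a library left out. Over all genes, 3897 passed with all libraries and 2074 to 3395 with a library left out. That of Cg3g022060 was lost without any library but white replicate 1 (adjusted p from limma 0.0198 to 0.0294, log2 fold changes of -0.87 to -0.71). With all libraries kept, the call of Cg3g022060 was also lost under quantile normalization (adjusted p = 0.01345 from limma) and without the mean-variance trend (0.0191). That of Cg4g024930 was lost without any library but red replicate 2 (0.0107 to 0.0193, with -0.50 to -0.44), and that of Cg3g015120 without red replicate 1 (0.0102, with -0.62) or white replicate 2 (0.0126, with -0.56). The hits of NDC1, VTE1 and the kinases ABC1K1 and ABC1K3, proteins that share the plastoglobule with fibrillins in Arabidopsis, had log2 fold changes of 0.21, 0.21, 0.10 and 0.16 and did not pass the test.

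In carotenoid synthesis, 1 of 15 tested genes rose and 2 fell, with a median log2 fold change of 0.22. This is a smaller share than the 27.5% of all genes tested. Cg6g016720, a hit of the first enzyme of the pathway, phytoene synthase, had 170.71, 165.54 and 147.39 FPKM in red and 27.63, 34.23 and 26.19 FPKM in white, a log2 fold change of 2.46 (adjusted p = 2.67e-05 from limma). Cg8g013670, a hit of lycopene beta-cyclase, which turns lycopene into beta-carotene, fell from 39.0 ± 6.76 FPKM in white to 15.5 ± 1.25 FPKM in red (SD, n = 3), a log2 fold change of -1.31 (adjusted p = 0.000568 from limma). A second hit of the same enzyme, Cg9g017190, averaged 3.04 ± 0.562 FPKM in red against 1.5 ± 0.310 FPKM in white (SD, n = 3, adjusted p = 0.0166 from limma). The other gene that fell was the zeta-carotene desaturase hit Cg3g011420, with means of 1.66 FPKM in red and 5.82 FPKM in white, a log2 fold change of -1.74. Its authors' mean normalized count was 101 per FPKM, above the upper quartile of 45.7 over all genes tested. Other genes, among them Cg3g011340 and Cg3g011400, share its best hit, and how reads were divided between them was not tested.

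The precursor pathway of plastid isoprenoids had 3 genes that rose and 1 that fell of 11 tested, with a median log2 fold change of 0.49. This is 36.4%, against 27.5% of all genes tested. Those that rose were hits of the early enzymes DXS (Cg9g003730, 0.997), DXR (Cg5g004930, 0.96) and MCT (Cg2g047400, 0.55), and the isomerase hit Cg6g000940 fell by 0.45 on the log2 scale. The fall of Cg6g000940 passed the threshold only with all 6 libraries, as leaving out any of them gave -0.51 to -0.40 with adjusted p values from limma of 0.0102 to 0.0338. Its call was also lost without the mean-variance trend (adjusted p = 0.0199 from limma). The call of Cg2g047400 was lost without red replicates 1 or 2 or white replicates 2 or 3 (0.50 to 0.57, adjusted p from limma 0.0106 to 0.0176). Of 10 tested genes of tocopherol and plastoquinone synthesis 2 rose and 2 fell (40.0%), with a median of 0.14. With the VTE4 pair as 1 gene, 2 of 9 rose and 1 fell. The called genes were the VTE5 hit Cg2g034770 (0.83), the HPPD hit Cg7g012480 (0.60) and the pair of VTE4 hits (-0.82 each, from the same values). The calls of Cg2g034770 and Cg7g012480 were lost without red replicates 1 or 2 or white replicates 2 or 3, with 0.74 to 0.79 and 0.56 to 0.61 (adjusted p from limma 0.0204 to 0.0262 and 0.0118 to 0.0164). Among 5 genes of chromoplast formation 0 rose and 1 fell, a smaller share than the 27.5% of all genes tested, with a median of -0.36. At an unadjusted p under 0.05 by limma 1 was higher and 3 were lower, a larger share than the 53.8% of all genes tested. The higher gene was the HSP21 hit Cg7g017800, with means of 1.51 FPKM in red and 0.32 FPKM in white. It passed the minimum of 1 FPKM only through red. The OR hit Cg7g012130, whose Arabidopsis relative controls phytoene synthase, had -0.36 (adjusted p = 0.0224 from limma) and the OR-like hit Cg6g015180 fell by 1.19 (adjusted p = 0.000462 from limma). Among the 3 tested genes of carotenoid cleavage the CCD4 hit rose (33.3%), and the median was -0.14.

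**Figure D4:**
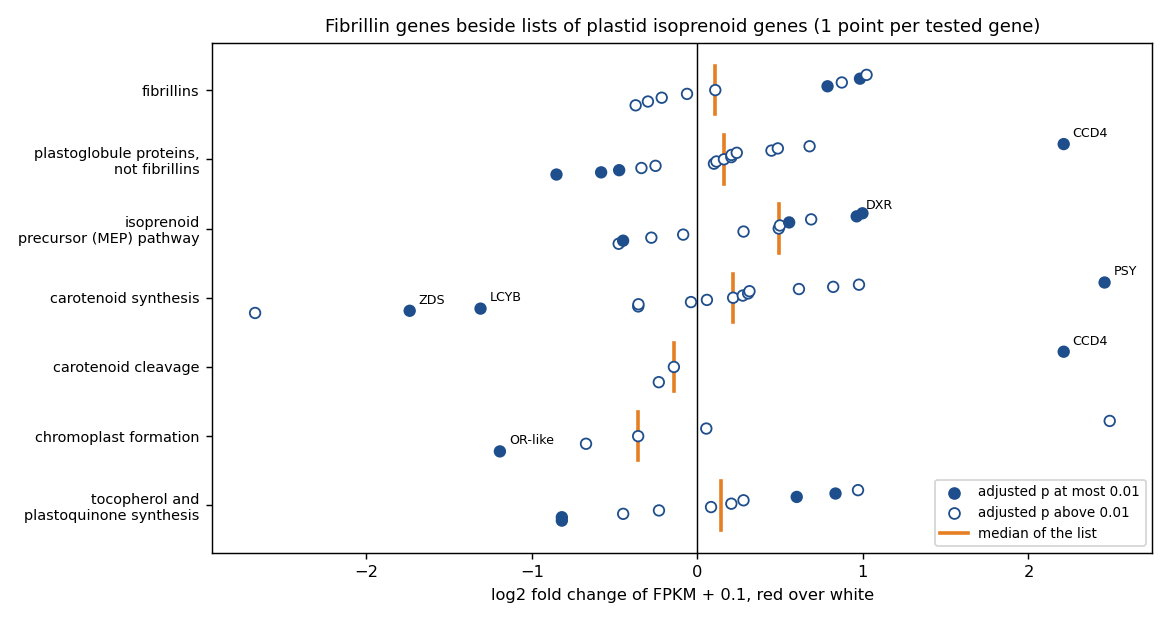
Log2 fold change of FPKM + 0.1, red over white, of each tested fibrillin gene (top) and of the tested genes of 6 plastid isoprenoid lists, with filled points at an adjusted p of at most 0.01 and the median of each list as an orange bar. Fibrillin genes lie between -0.37 and 1.02, while the called PSY and CCD4 hits exceed 2. An HSP21 hit at 2.49 and a ZDS hit at -2.67 were not called. The HSP21 hit Cg7g017800 passed the minimum level only through red and the ZDS hit CgUng021180 only through white. CgUng021180 had an authors' mean normalized count of 0.30, so almost no reads. CCD4 and VTE1 hits are in more than 1 list.

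Markers of photosynthesis and of other tissues were read in the same libraries. The 18 genes hit by photosynthetic markers summed to 669.25 to 761.08 FPKM in red and 670.95 to 852.8 FPKM in white, overlapping ranges with no gene at 0 throughout a cultivar. Of 15 tested, 2 rose (Cg2g044410, Cg4g021720) and 4 fell, among them Cg2g044400, Cg3g001930 and Cg7g000770. This is 40.0%, against 27.5% of all genes tested. Cg2g044410 and Cg2g044400 share the best hit LHCB1.4, and how reads were divided between them was not tested. Their authors' mean normalized counts were 3.48 and 5.10 per FPKM, below the lower quartile of 19.8 over all genes tested. The 6 seed genes summed to 5.4 to 25.51 FPKM in red, highest in red replicate 3, and to 0.09 to 0.25 FPKM in white, where 4 of the 6 were at 0. The 2 tested, Cg9g008230 and Cg9g008240, both rose. They passed the minimum of 1 FPKM only through red, with means of 5.38 and 5.22 FPKM against 0.043 and 0.13 FPKM in white. A fall could therefore not have been found for them. The 11 epidermis and cuticle genes summed to 119.46 to 162.5 FPKM in red and 30.16 to 91.03 FPKM in white, with 1 and 6 genes at 0. Of 3 tested genes 0 passed the test (1 at an unadjusted p under 0.05 by limma). The GPAT8 hit Cg5g041940 made up most of this sum, with means of 120.5 FPKM in red and 49.5 FPKM in white. The other tested genes had log2 fold changes of 0.63 (CER3 hit Cg4g022740) and -0.10 (KCS6 hit Cg7g014400). The 11 phloem genes summed to 148.2 to 198.9 FPKM in red and 440.04 to 481.51 FPKM in white, with 5 and 7 genes at 0. Most of this sum came from Cg6g008370, which fell, with means of 156.9 FPKM in red and 440.8 FPKM in white. The other tested phloem genes did not pass the test, with log2 fold changes of 1.1 for Cg3g020340 and -0.25 for Cg3g007120. The part of these tissues in the fibrillin levels was not tested. Leaving out red replicate 3 left seed sums of 5.81 and 5.4 FPKM in red, still above the white ones, so the seed difference between the cultivars remained. The log2 fold changes were then 1.04 for Cg3g005550 and 0.80 for Cg3g007830, both past the threshold. As the seed difference remained, this omission cannot show what part seed tissue has in these changes. The calls of 2 of the marker genes were lost in some settings with a library left out. That of Cg9g008240 was lost without red replicate 1 or any white library (adjusted p from limma 0.0169 to 0.0249, log2 fold changes of 3.63 to 4.29) and that of Cg3g001930 without red replicate 2 or white replicates 2 or 3 (0.0119 to 0.0184, with -0.91 to -0.79).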

How the data were processed

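Poly(A) RNA of pulp from 3 red and 3 white libraries was sequenced by the authors. Reads were trimmed with Trimmomatic and mapped with STAR 2.7.1a to the C. maxima genome (version 1.0), per the study's methods and processing notes. The deposited FPKM values were made by the authors with RSEM 1.3.1, per library, and are listed to 2 decimals. The authors' mean normalized count, a signal averaged over the 6 libraries, came from featureCounts 2.0.1 and DESeq2 size factors and was used only to show read support. The deposited table also holds the authors' fold changes and p-values, which were not used, and neither was their list of differential genes. Raw counts per library were not analysed here, so no counting interval is given. The study reports the clean bases of each library, which were not used here.

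The cultivars were compared in limma 3.58.1 (R 4.3.3) on log2(FPKM + 0.1) values, with a mean-variance trend, over genes with a mean of at least 1 FPKM in at least 1 cultivar, and p was adjusted by Benjamini-Hochberg over all of them. The fit was tested on simulated data. The DESeq2 test of the study needs counts and was not run. Groups came from the sample labels, and p-values measure the spread between pooled fruit samples. Alternatives were the pseudocount, the filter, the scaling, the trend, a replicate block, leaving out each library, and family membership by best hit. Fibrillin genes were all named. From each other list up to 3 called genes per direction with the largest change were named, and PSY, LCYB, CCD4, VTE1, NDC1, ABC1K1, ABC1K3, OR and SPS hits whatever their change. The members and lists were chosen with earlier results of these data known. Gene names and best hits are those of the deposited annotation, and no sequence of these genes was used here.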

Additional observations from a re-analysis of the deposited data

How the results depend on the processing

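The number of fibrillin genes that rose was 2 in the comparison as reported and 1 to 3 when a library was left out, with 1 without red replicate 2 and without white replicate 2. It was 2 or 3 under the other pseudocounts, filters and scalings. With the replicate number as a block it was 1, as Cg3g007830 no longer passed (adjusted p = 0.0133 from limma). With the block Cg9g008910 had 0.0314 and Cg9g028680 lost its call (0.0173), as did Cg3g022060, Cg4g024930, Cg6g000940, Cg2g047400 and Cg3g001930. Same-numbered libraries did not deviate together (correlations of 0.000385, 0.0309 and -0.0446), so the numbers were not taken as pairs. The number that fell was 0 throughout and 1 when membership was set by best hit. Of the pathway genes, 7 rose as reported and 4 to 7 did with a library left out, and 9 fell as reported and 5 to 7 with a library left out. Rescaled to the same library sum, the summed fibrillin level was 101.4 in red and 91.47 in white, a change of unit that left their ratio at 1.11 against 1.12.

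With a library left out, the log2 fold change ran from -0.19 (without white replicate 3) to 0.27 for Cg3g005890, from -0.23 to 0.14 (without red replicate 3) and 0.16 (without white replicate 3) for Cg4g000380, and from -0.017 (without red replicate 1) to 0.22 for Cg5g015770, all with a change of sign. That of Cg4g000440 was -0.0098 without white replicate 3. None of these genes passed the test in any setting. The cause was not tested. Of 31 named genes of the other lists, 9 changed their call in at least 1 of 16 alternatives. Over all genes, 3897 passed as reported, 2074 without red replicate 1, 2406 without white replicate 2 and 2582 without white replicate 3. Raw counts per library were not analysed, so the low values of Cg1g026330 and Cg2g001500 are given without a counting error.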

Other observations

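Replicate 3 stood at the ends of its cultivar in several genes, a pattern chosen after the values were seen. Red replicate 3 was the lowest red library and white replicate 3 the highest white library in 1926 of the 14158 genes tested (13.6%). The same held for 2 of the 9 fibrillin genes tested, Cg9g008910 and Cg4g000380, and for 8 of the 15 photosynthetic genes tested (53.3%). What links these genes was not tested.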
